A study of Vitis vinifera with 165 samples.

Results

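The 150 grape berry gene models here changed by under 0.5 in log2(RPKM + 1) up to veraison, averaged over 3 seasons, and rose afterwards. They were chosen from 20460 gene models tested, out of 29971 in the deposited table, in pericarp of Pinot noir berries (Vitis vinifera) from the seasons 2012, 2013 and 2014. For each season the change up to veraison was taken as the mean of days -9 to 0 minus the mean of the days up to -14, and the rise after veraison as day 21 minus the mean of days -9 to 0. Both were computed on log2(RPKM + 1) with equal weight for each thinning level, then averaged over the 3 seasons. Members are the 150 gene models with the largest rise among the 14289 whose change up to veraison was within 0.5 on the log2 scale.

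The libraries came from vines of a single clone grafted on Freedom rootstock near Modesto, California, on which clusters were cut after fruit set to take away 75% or 50% of the crop. The stronger treatment left a cluster on every other shoot and the weaker one a cluster on each shoot. Every library was made from a pool of ground berries with the seeds taken out, and each of the 55 groups (season, thinning level and day) had 3 libraries, 165 in all. In 2012 both levels were sampled on days -28, -18, -9, 0, 11, 21 and 32 relative to veraison, with day 34 at 75% only and day 42 at 50% only. In 2013 they were sampled on days -14, -7, 0, 7, 14, 21, 28, 35 and 37. In 2014 they were sampled on days -14, -6, 0, 7, 14, 21, 28, 35, 42 and 49, with day 38 at 75% only. Unthinned vines were not analysed here.

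Veraison is the onset of ripening, when a grape berry softens, colours and begins to store hexose sugars. Grape berries grow in a pair of phases separated by a lag, and many genes change sharply at the end of that lag while others respond only once sugar has built up. Late ripening is the time when skin and flesh accumulate phenolics, aroma precursors and proteins linked to defence and dehydration. The gene models carry identifiers (IDs) that begin with VIT_, and the files and the annotation given do not pair them with gene names, so no function is stated for any of them.

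Median Pearson correlation of a library with the others of its group was 0.987 across gene models. The lowest was 0.916, for replicate 2 of 75% thinning on day 0 of 2012, and the 3 libraries of 50% thinning on day -18 of 2012 lay at 0.940 to 0.960. RPKM values carry no read counts, so the precision of low values is not known. In pooled tissue, fewer cells that express a gene and less RNA per cell cannot be told apart.

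The values that chose the members are given first, as a description. The rise after veraison lay between 1.89 and 6.61 on the log2 scale, with a median of 2.61, and the change up to veraison between -0.48 and 0.50. The last member by rank, VIT_03s0038g02140, had a rise of 1.889, and the next gene model below it, VIT_16s0050g00400, had 1.886. Another 145 gene models rose at least as much as the last member but were left out because they had already risen by 0.5 or more before veraison, and 18 because they had fallen by as much. The limit on the change before veraison held only for the average of the seasons. It was also set on a scale where the added 1 damps changes of low values. In 2012 the mean over libraries of the members' median had already gone from 0.60 on day -9 to 1.27 on day 0. In single seasons, 40 members had moved by 0.5 or more in 2012, 17 in 2013 and 21 in 2014. The median rise was 2.38 in 2012, 3.20 in 2013 and 2.53 in 2014.

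Most members were low until veraison. Their mean level on day 21 ranged from 3.40 to 4286 RPKM with a median of 13.6, and 14 of 150 reached 100 RPKM. At veraison (days -9 to 0) 60 members averaged at least 1 RPKM, and on the days up to -14 this held for 56. The largest rise was that of VIT_03s0088g00710. Its level on day 21 was 56.0 RPKM in the lowest, 139 in the median and 307 in the highest of 18 libraries. On days -9 to 0 the lowest and median of 36 libraries were 0 and the highest was 43.5 RPKM, with 19 libraries listed at 0. The groups did not overlap, but the rule ranked members by these same days, so this is a description and not a test. The most abundant member, VIT_06s0004g04650, had 2885, 4268 and 5174 RPKM (lowest, median and highest) on day 21, against 615, 906 and 2702 RPKM on days -9 to 0. It was thus already abundant in green berries, at 545 to 819 RPKM on the days up to -14, and its change up to veraison of 0.496 lay just inside the limit.

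**Figure D1:**
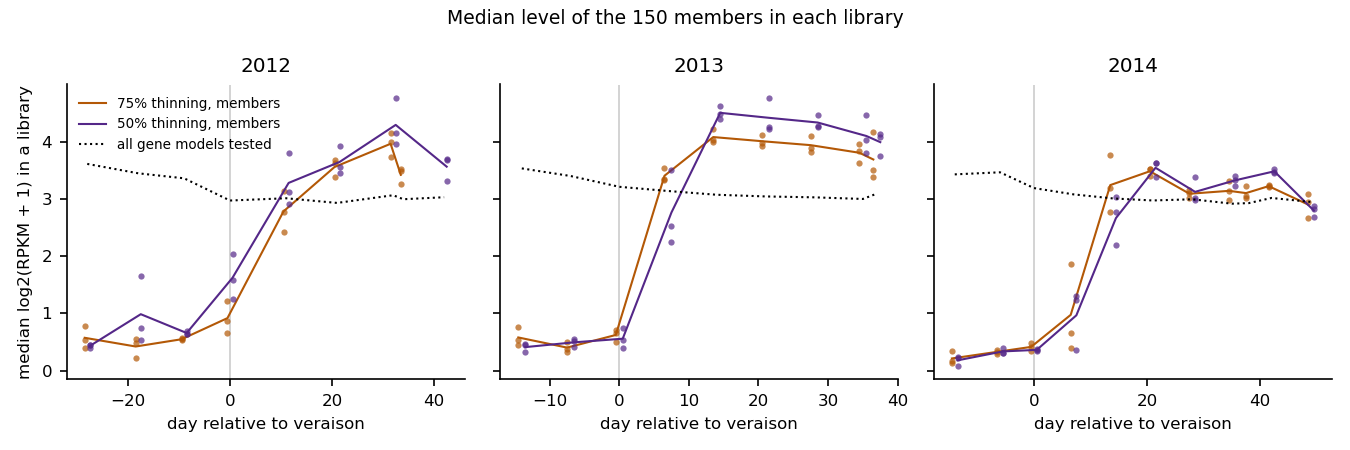
Median log2(RPKM + 1) of the 150 members in each library (points, shifted by 0.5 day to either side of the sampling day) against the day relative to veraison, in 3 seasons. Lines join the means of 3 libraries, brown for 75% and purple for 50% thinning, and the dotted line is the mean of the same median over all 20460 gene models tested. Pooled over both levels (6 libraries a day), the means of the days before veraison lay between 0.20 and 0.71. A single library reached 1.66, at 50% on day -18 of 2012. On day 21 the means of both thinning levels lay above the dotted line in all 3 seasons.

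The calendar of the rise differed between seasons. The mean over libraries of the members' median log2(RPKM + 1) in 2012 was 1.27 at veraison, 3.03 at day 11 and 3.60 at day 21. In 2013 the values for days 0, 7, 14 and 21 were 0.59, 3.08, 4.29 and 4.21. In 2014 the same days gave 0.39, 0.97, 2.95 and 3.51. By day 7, 1 of the 150 members had passed 50% of its rise in 2014, against 116 in 2013. By day 14 the numbers were 134 in 2014 and 149 in 2013, and by day 11 of 2012 the number was 136. Among single libraries of day 7, 46 to 108 members reached 1 RPKM in 2014, against 137 to 147 in 2013. Because day 0 and day 21 entered the rule, these numbers describe the members and were not tested.

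Sugar on the same day also differed between seasons. On day 0 it lay between 10.23 and 13.43 g per 100 ml in 2012, between 9.25 and 11.12 in 2013 and between 1.4 and 2.15 in 2014. On day 7 it was 11.32 to 13.49 g per 100 ml in 2014 and 13.34 to 15.94 in 2013. Day 0 of 2014 thus had less sugar than day -9 of 2012 (4.21 to 6.11 g per 100 ml). The part of sugar, or of how day 0 was set in each season, in the timing of the members was not tested.

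The same rule applied to other seasons gave a check on libraries that its ranking had not used. The filter of at least 1 RPKM in at least 3 libraries was still applied over all 165 libraries. For each season, 150 gene models were chosen from the other 2 seasons alone and their rise was tested in the season left out, with limma and Benjamini-Hochberg adjustment, at an adjusted p under 0.05 and a log2 difference of at least 1. Of the list tested in 2012, all but 2 of the 150 rose, against 3.95% of all gene models tested. In 2013 the number was 143 (5.41% of all), and in 2014 it was 133 (5.08% of all). None of the 3 lists held a gene model called lower, against 9%, 13% and 14.7% of all in the same order of seasons. Of each list, 149, 145 and 142 gene models passed an unadjusted p of 0.05 in 2012, 2013 and 2014. Most gene models also passed it in either direction: 14422, 15186 and 15575 of all 20460 tested, in the same order. The median rise was 2.53, 2.85 and 2.38 in those seasons, while the median over all gene models was -0.15, -0.16 and -0.22. The lists shared 119, 119 and 128 gene models with the 150 members.

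IDs of the members were not spread evenly. Of 150 members, 38 (25.3%) had an ID beginning with VIT_16, against 3.92% of the gene models tested. Members whose ID numbers lay within 100 of the next on the same scaffold code, at least 3 in a row, formed 6 runs with 47 members. The longest held 27 members from VIT_16s0100g00750 to VIT_16s0100g01200, where the table lists 39 gene models, 34 of them tested. All 34 kept within the limit before veraison, and their median rise was 2.75. The next held 8 members from VIT_16s0039g01120 to VIT_16s0039g01360, where 13 of 23 listed gene models were tested, with a median rise of 2.01. The other 4 runs held 3 members each. Runs were defined after the values had been seen, and they are described without a test. Where neighbours are near-identical copies, reads could be divided between them, so the members of a run are not independent and single values within it are uncertain.

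Levels within the runs were moderate. Mean levels on day 21 were 4.83 to 30.9 RPKM in the run of 27 and 4.13 to 13.1 RPKM in the run of 8. The spread between libraries of a group, as the median residual SD on the log2 scale, was 0.46 in the run of 27, 0.32 in the run of 8 and 0.39 in the other 115 members, against 0.18 over all gene models tested. Members are thus more variable between libraries of one group than most gene models, and this sets the size of difference that 3 libraries can show.

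**Figure D2:**
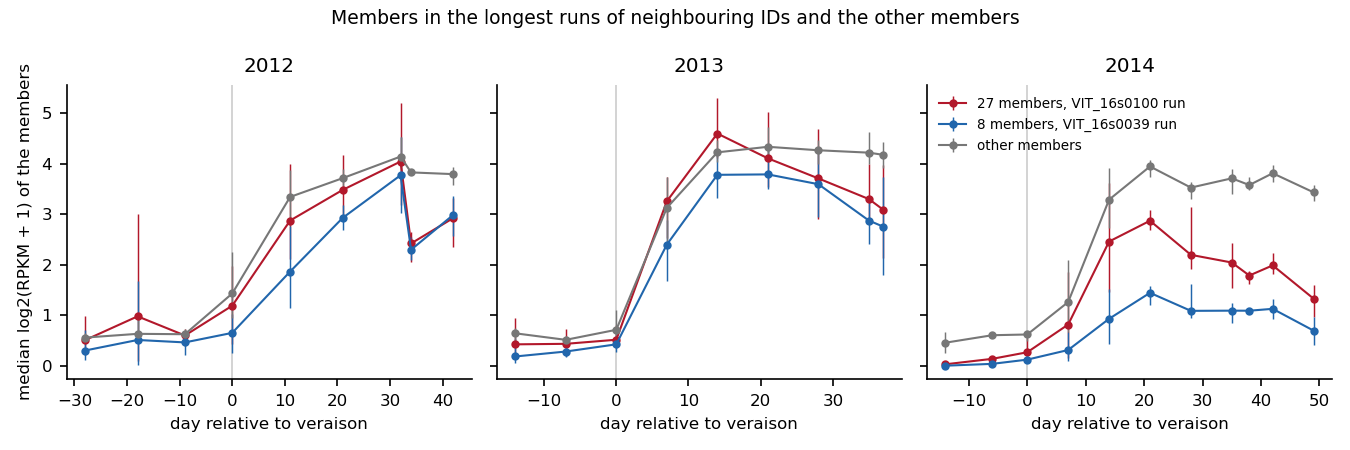
Median log2(RPKM + 1) of the 27 members of the VIT_16s0100 run, the 8 members of the VIT_16s0039 run and the other 115 members against the day relative to veraison. Points are means over the libraries of a day (6, or 3 on days 34 and 42 of 2012 and day 38 of 2014) and bars span the lowest to the highest library. Both runs were highest on day 32 in 2012 and lower on later days. In 2013 the run of 27 was highest on day 14, and in 2014 both runs stayed below the other members after day 7.

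In the second week after veraison (day 14 minus day 7 in 2013 and 2014), 108 of the 150 members rose, against 1.12% of all gene models, and none was called lower, against 1.47% of all. These days were not used by the rule, but members were chosen to rise somewhere between day 0 and day 21, so a rise within that span is partly fixed by the choice. At an unadjusted p under 0.05, 147 were higher and 0 lower, while 9837 of all 20460 gene models passed in either direction. The median difference was 1.31 over the members and -0.03 over all gene models. By season the calls were 108 in 2014 (1.42% of all gene models) and 74 in 2013 (0.997% of all).

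VIT_14s0128g00570 had the largest rise in that week. It lay at 30.0, 100 and 547 RPKM (lowest, median and highest of 12 libraries) on day 14, against 0.144, 6.87 and 198 RPKM on day 7. The days overlapped in their range. The log2 difference was 3.99 ± 0.33 (SE; limma, adjusted p = 3.733e-20). VIT_18s0166g00060 came next, at 48.1, 165 and 405 RPKM on day 14, against 0, 18.4 and 269 RPKM on day 7, when 5 of 12 libraries were listed at 0. Its difference was 3.58 ± 0.74 (SE; limma, adjusted p = 2.216e-05).

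From day 11 of 2012 or day 14 of 2013 and 2014 on, members moved in both directions. The median member had by then made 76.1% (2012), 100.7% (2013) and 78.2% (2014) of its rise to day 21. Late rises in 2012 and 2014 can thus include part of the rise that chose the members. The late change was taken as day 35 minus day 14, or day 32 minus day 11 in 2012, over both thinning levels and with equal weight for each season. In it 34 members rose (1.74% of all gene models) and 17 fell (4.95% of all), and 99 did not pass. The median was 0.27 over the members and 0.03 over all gene models. In single seasons, 75 rose and 9 fell in 2012, 25 rose and 49 fell in 2013, and 40 rose and 25 fell in 2014. The shares of all gene models were 3.2% higher and 5.36% lower in 2012, 2.39% and 5.2% in 2013, and 2.34% and 7% in 2014. In all 3 seasons 18 members rose and 8 fell. Without the season 2012 the calls moved to 32 higher and 38 lower. Shares of all gene models are not given for the calls shared by all 3 seasons or for those without 2012, so these counts describe the members alone.

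The largest late rise was that of VIT_00s0270g00010. It had 25.0, 52.3 and 104 RPKM (lowest, median and highest of 18 libraries) on the late days, against 0, 1.55 and 5.78 RPKM on days 11 and 14. The groups did not overlap, and 1 earlier library was listed at 0. The log2 difference was 4.26 ± 0.14 (SE; limma, adjusted p = 1.221e-53). VIT_07s0005g00870 had 4.99, 17.8 and 32.3 RPKM on the late days, against 0.316, 1.18 and 4.44 RPKM on days 11 and 14, again without overlap. Its difference was 2.90 ± 0.12 (SE; limma, adjusted p = 6.522e-46).

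Of the 17 that fell, 2 had the largest falls. VIT_12s0057g01110 fell to 2.56, 5.63 and 15.3 RPKM on the late days, against 20.7, 40.8 and 84.8 RPKM on days 11 and 14, with no overlap. The difference was -2.56 ± 0.14 (SE; limma, adjusted p = 2.101e-33). VIT_18s0166g00060, named above for its rise in the second week, had 0, 51.5 and 176 RPKM on the late days, against 27.2, 155 and 405 RPKM on days 11 and 14. The groups overlapped, and 5 of 18 late libraries were listed at 0. Its difference was -2.61 ± 0.60 (SE; limma, adjusted p = 5.913e-05).

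**Figure D3:**
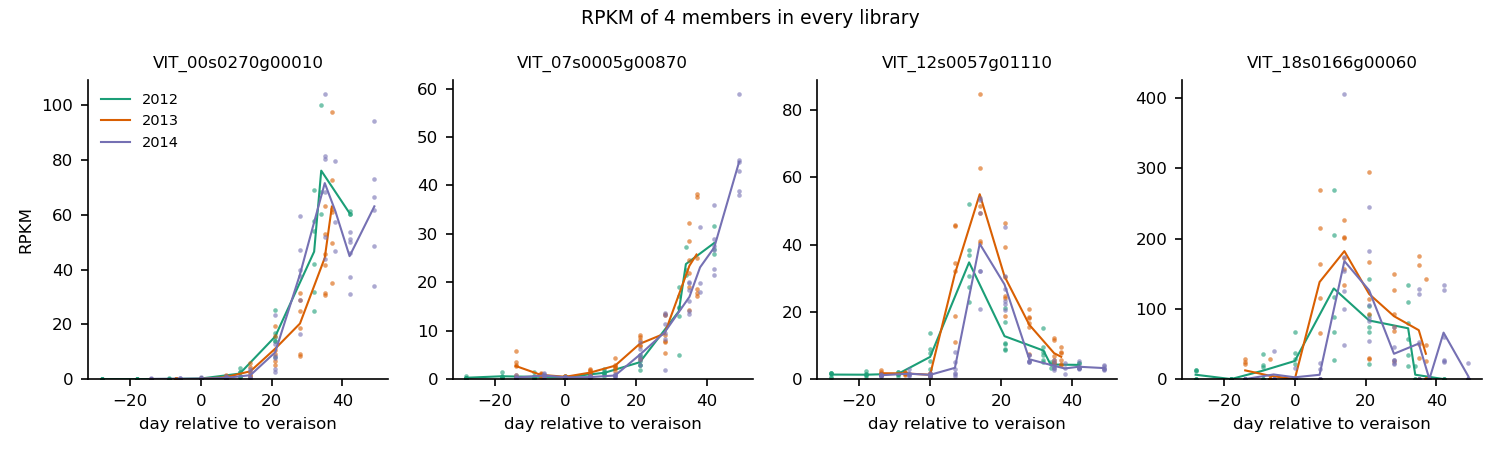
RPKM of 4 members in every library (points) against the day relative to veraison, with lines through the mean of each day in 2012, 2013 and 2014; days 34 and 42 of 2012 and day 38 of 2014 hold 1 thinning level. The 2 members on the left were at or below 5.78 RPKM in every library of day 14 and had their highest means on day 34 or later. The 2 on the right had their highest means on day 11 or 14.

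The seasons differed in the late change by their own test, and the longest runs carried much of the difference. In 2014 minus 2013, 24 members were higher (0.655% of all gene models) and 2 lower (1.35% of all). The count fell to 15, all higher, when replicate 2 of every group was left out. In 2012 minus 2013, a comparison added after the season values had been seen, 65 members were higher (3.31% of all gene models) and 1 lower (1.95% of all). That count took in all 27 members of the run of 27, all 8 of the run of 8, and 31 of the other 115. The median late change of the run of 27 was 1.40 in 2012, -1.51 in 2013 and -0.30 in 2014, and 22 of 27 rose in 2012 while 18 of 27 fell in 2013. For the run of 8 the medians were 2.14, -0.84 and 0.09 in the same order, and 7 of 8 rose in 2012. The other 115 members had medians of 0.73, 0.09 and 0.25.

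Single members show the same contrast in their libraries. VIT_16s0039g01280 had 5.84, 10.2 and 19.6 RPKM (lowest, median and highest of 6 libraries) on day 32 of 2012, against 0.986, 1.56 and 3.12 RPKM on day 11. In 2013 it had 3.11, 4.93 and 7.75 RPKM on day 35, against 6.51, 10.2 and 14.5 RPKM on day 14. It did not overlap between the days in 2012, when it was higher on the late day, and overlapped in 2013, when its median was lower on the late day. The difference between the seasons' late changes was 2.98 ± 0.23 (SE; limma, adjusted p = 3.568e-20). Its neighbour VIT_16s0039g01240 gave 3.22 ± 0.26 (SE; limma, adjusted p = 7.6e-20). VIT_02s0033g01390 was the 1 member called the other way. It had 42.8, 56.7 and 63.9 RPKM on day 32 of 2012, against 25.3, 36.5 and 78.1 RPKM on day 11. In 2013 it had 84.0, 88.5 and 118 RPKM on day 35, against 22.5, 24.2 and 30.5 RPKM on day 14. Its difference was -1.36 ± 0.40 (SE; limma, adjusted p = 0.004754), with an adjusted p of 0.05912 without replicate 2.

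**Figure D4:**
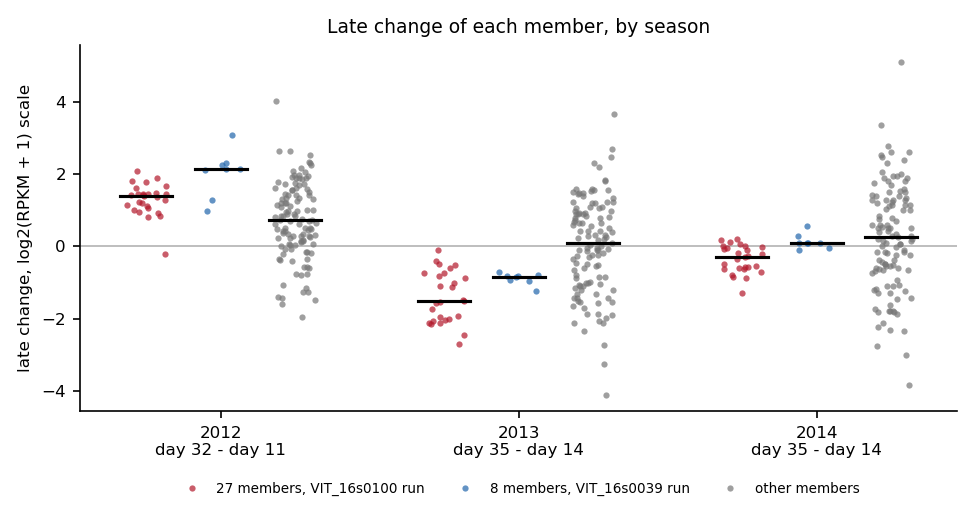
Late change of each of the 150 members on the log2(RPKM + 1) scale, in 2012 (day 32 minus day 11), 2013 and 2014 (day 35 minus day 14), with the median of each set as a black bar. Points are spread sideways for legibility. The run of 27 lies mostly above 0 in 2012 (median 1.40) and wholly below 0 in 2013 (median -1.51), while the other 115 members have medians of 0.73 and 0.09 in those seasons.

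Levels late in ripening were lower in 2014 than in 2013. On days 28 and 35 together, 48 of the 150 members were lower in 2014 (2.09% of all gene models) and 0 higher (0.0391% of all). At an unadjusted p under 0.05, 124 were lower and 3 higher, while 8757 of all 20460 gene models passed in either direction. The median difference was -0.78 over the members, against -0.00194 over all gene models, and 144 of 150 differences were below 0. The calls took in 20 of the run of 27, 8 of the run of 8 and 20 of the other 115. Their median differences were -1.51, -2.09 and -0.58 for the 3 sets. Sugar on these days lay between 18.33 and 25.63 g per 100 ml in 2014 and between 21.03 and 27.14 in 2013. The part of sugar in this difference was not tested.

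VIT_00s2849g00010 differed most. It had 0, 0.299 and 0.966 RPKM (lowest, median and highest of 12 libraries) on days 28 and 35 of 2014, against 5.35, 11.0 and 21.7 RPKM in 2013. The seasons did not overlap, and the difference was -3.28 ± 0.14 (SE; limma, adjusted p = 1.753e-42). VIT_16s0100g01190, in the run of 27, had 0.199, 0.544 and 1.34 RPKM in 2014, against 5.55, 8.54 and 17.0 RPKM in 2013. These did not overlap either, and the difference was -2.76 ± 0.15 (SE; limma, adjusted p = 1.206e-32). Both were near 1 RPKM or below in 2014, where the added pseudocount of 1 holds the difference down.

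The longest season, 2014, was followed to day 49. From day 35 to day 49, 2 members rose (0.2% of all gene models) and 10 fell (0.777% of all), and the median was -0.27, against 0.03 over all gene models. VIT_07s0005g00870 went on rising, with 38.1, 43.9 and 58.8 RPKM (lowest, median and highest of 6 libraries) on day 49, against 13.4, 17.3 and 19.99 RPKM on day 35. The days did not overlap, and the difference was 1.35 ± 0.20 (SE; limma, adjusted p = 8.154e-08). VIT_18s0001g08990 had 25.5, 29.3 and 39.6 RPKM on day 49, against 9.56, 15.9 and 17.6 RPKM on day 35 (log2 difference 1.01 ± 0.26 SE; limma, adjusted p = 0.002221).

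The largest called fall was that of VIT_18s0001g01570, which had 0.486, 4.61 and 20.1 RPKM on day 49, against 0.808, 44.4 and 179 RPKM on day 35. The days overlapped, and its difference was -2.62 ± 0.91 (SE; limma, adjusted p = 0.02837). It was not called without replicate 1 (limma, adjusted p = 0.2742), without replicate 2 (0.1122) or with a pseudocount of 0.1 (0.05639). VIT_02s0025g04270 had 0.917, 4.50 and 6.17 RPKM on day 49, against 2.32, 17.3 and 28.9 RPKM on day 35, and the days overlapped. Its difference was -1.60 ± 0.49 (SE; limma, adjusted p = 0.01067), and it was not called without replicate 1 (0.156) or replicate 2 (0.07362). The 12 calls depended on single libraries: there were 4 without replicate 1 of every group, and 7 without replicate 1 of 50% thinning on day 35 alone.

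Thinning was compared on the 26 days sampled at both levels, in 3 phases. The rule gave both levels equal weight and did not use their difference. From day 21 to harvest, with 11 days and 33 libraries a level, 53 members were lower at 75% than at 50% thinning (3.96% of all gene models) and 10 were higher (1.08% of all). The median difference was -0.19 over the members and -0.01 over all gene models. In the run of 27, 26 members were called lower with a median of -0.44, and in the run of 8 the number was 4 with a median of -0.27. Of the other 115 members 23 were lower and 10 higher.

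These counts rested on few libraries. Without replicate 2 of every group, 3 members were called lower and 8 higher, and none of the run of 27 was called, though all 27 differences stayed below 0. Without day 32 of 2012, 10 were lower and 7 higher, with 2 of the run of 27 called. Without replicate 2 of 50% thinning on day 32 of 2012 alone the count of 63 fell to 32, and without replicate 1 of 75% thinning on that day to 38. With a pseudocount of 0.1 the count was 15, and none of the run of 27 was called.

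Library medians of the run of 27 are given for the day with the widest gap in each season, from day 21 on. Other days had smaller or opposite gaps: on days 21, 42 and 49 of 2014 the run's median difference was -0.08, -0.14 and 0.23. On day 32 of 2012 they were 3.19, 3.67 and 4.18 (log2 scale, replicates 1 to 3) at 75% thinning, against 4.18, 5.20 and 3.84 at 50%. On day 28 of 2013 they were 2.90, 3.43 and 3.19 at 75%, against 3.94, 4.10 and 4.68 at 50%, with no overlap. On day 28 of 2014 they were 2.13, 1.92 and 2.02 at 75%, against 1.97, 3.15 and 1.98 at 50%, where only replicate 2 at 50% lay above the range at 75%. At 75% all 27 group means were lower on 7 of the 11 days, and 26 were on day 35 of 2013. In 2014 it was 21 at days 21 and 42, and 2 at day 49.

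In single seasons the tests gave unequal counts. In 2013, 37 members were lower (1.31% of all gene models) and 4 higher (0.274% of all). In 2012 none was called lower (0.0489% of all gene models) or higher (0.0147% of all), with 27 lower and 8 higher at an unadjusted p under 0.05. In 2014, 1 was called higher (0.347% of all) and 0 lower (0.235% of all), with 8 lower and 8 higher at an unadjusted p under 0.05. For single seasons the shares of all gene models at that unadjusted p were not computed. Whether the thinning difference itself differs between the seasons was not tested. Sugar was higher at 75% on 8 of these days, by group means, as on day 32 of 2012 (24.9 against 23.3 g per 100 ml) and day 28 of 2014 (23.3 against 20.9). It was lower at 75% on day 37 of 2013 (26.0 against 26.6) and in 2014 on day 42 (23.2 against 25.2) and day 49 (26.0 against 27.4). The part of sugar in the thinning difference was not tested.

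**Figure D5:**
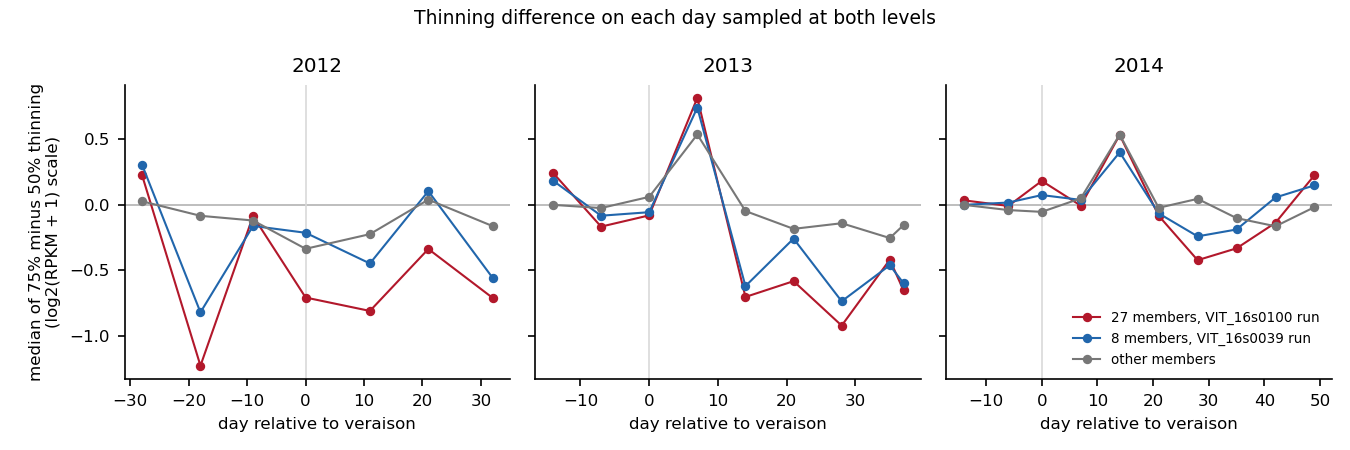
Median over members of the mean at 75% minus the mean at 50% thinning (log2 scale, 3 libraries a level) on each day sampled at both levels, for the run of 27, the run of 8 and the other 115 members. Values below 0 are lower at 75%. The run of 27 lay below 0 on every day from day 21 on except day 49 of 2014, and above 0 on day 7 of 2013 (0.81) and day 14 of 2014 (0.53).

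The 4 members named for this phase lie outside the 2 longest runs. VIT_14s0066g01090 had 2.73, 12.8 and 29.4 RPKM (lowest, median and highest of 33 libraries) at 75%, against 0.928, 8.69 and 27.9 RPKM at 50%. Its mean was higher at 75% on 11 of 11 days, and the difference was 0.62 ± 0.08 (SE; limma, adjusted p = 3.183e-09). VIT_07s0005g00870, the member that rose most toward day 49 of 2014, had 3.66, 16.2 and 45.3 RPKM at 75%, against 1.91, 13.2 and 58.8 RPKM at 50%. It was higher at 75% on 10 of 11 days (0.49 ± 0.09 SE; limma, adjusted p = 0.0001019). VIT_08s0040g00920 had 0.305, 2.62 and 76.5 RPKM at 75%, against 0.339, 8.91 and 128 RPKM at 50%, and was lower at 75% on 10 of 11 days (-1.31 ± 0.26 SE; limma, adjusted p = 0.0002626). VIT_07s0151g01070 had 0.635, 2.41 and 10.4 RPKM at 75%, against 0.545, 5.29 and 27.9 RPKM at 50%, and was lower at 75% on 10 of 11 days (-0.74 ± 0.14 SE; limma, adjusted p = 0.0001019). Its call ended without replicate 2 (adjusted p = 0.06334). All 4 overlapped widely between the levels, since each phase spans many days.

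From veraison to day 14, with 8 days and 24 libraries a level, 9 members were higher at 75% (0.64% of all gene models) and 0 lower (2.9% of all). At an unadjusted p under 0.05, 23 were higher and 17 lower, while 3291 of all 20460 gene models passed in either direction. The median difference over the members was -0.07. Each season was also taken alone, and whether the thinning difference differs between seasons was not tested. The median over members was -0.48 in 2012, with 19 called lower (1.11% of all gene models) and 0 higher (0.122% of all). It was 0.11 in 2013, with none called higher (0.00489% of all) or lower (0% of all). It was 0.18 in 2014, with 4 called higher (0.557% of all) and 0 lower (0.0147% of all). At an unadjusted p under 0.05, 77 were lower and 3 higher in 2012, 0 lower and 23 higher in 2013, and 0 lower and 20 higher in 2014. Shares of all gene models at that unadjusted p were not computed for single seasons. On day 7 of 2013 the members' library medians were 3.36, 3.33 and 3.53 (log2 scale, replicates 1 to 3) at 75%, against 2.53, 2.25 and 3.51 at 50%, and mean sugar was 15.2 g per 100 ml at 75% and 14.1 at 50%. On day 0 of 2012, which includes the library that stood apart, they were 1.22, 0.66 and 0.87 at 75%, against 2.04, 1.25 and 1.58 at 50%, and mean sugar was 13.3 g per 100 ml at 75% and 11.2 at 50%. Mean sugar was higher at 75% on 7 of the 8 days. On the other days with more sugar at 75%, the median difference over the members was -0.44 (day 11 of 2012), 0.02 (day 0 of 2013), -0.24 (day 14 of 2013), 0.00 (day 0 of 2014) and 0.53 (day 14 of 2014), and on day 7 of 2014 it was 0.04. The part of sugar in these differences was not tested.

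VIT_07s0005g00170 was higher at 75% on 8 of 8 days of this phase, at 44.6, 154 and 420 RPKM (lowest, median and highest of 24 libraries) at 75%, against 26.3, 107 and 216 RPKM at 50%. The difference was 0.48 ± 0.09 (SE; limma, adjusted p = 0.000425). VIT_18s0001g08990 was higher on 7 of 8 days, at 0.369, 3.34 and 11.3 RPKM, against 0.121, 1.19 and 6.08 RPKM (0.72 ± 0.13 SE; limma, adjusted p = 0.0005909). Without replicate 1 no member was called, and these 2 had adjusted p-values of 0.07432 and 0.2088. Without the library of day 0 of 2012 that stood apart, 15 were higher.

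Before veraison the members were low. Over the 7 days of the 3 seasons, 4 of 150 members were lower at 75% (1.52% of all gene models) and 0 higher (0.518% of all), with 12 lower and 1 higher at an unadjusted p under 0.05. In either direction, 13 of 150 members and 1819 of all 20460 gene models passed that unadjusted p, which are similar shares. VIT_03s0038g00130 was lower at 75% on 7 of 7 days, at 0.441, 1.60 and 4.17 RPKM (lowest, median and highest of 21 libraries), against 0.844, 3.55 and 10.6 RPKM at 50% (-0.58 ± 0.14 SE; limma, adjusted p = 0.003789). VIT_08s0040g00440 was lower on 5 of 7 days, at 1.15, 3.13 and 13.4 RPKM, against 1.96, 6.20 and 22.3 RPKM (-0.47 ± 0.12 SE; limma, adjusted p = 0.008467). In 2012 alone, 5 members were lower (0.293% of all gene models) and 0 higher (0.611% of all), with 35 lower and 1 higher at an unadjusted p under 0.05. The share of all gene models at that unadjusted p was not computed for 2012 alone. Day -18 of that season had the widest gap of any day for the run of 27, with a median of -1.23 and all 27 lower at 75%. Its library medians were 0.10, 0.29 and 0.64 (log2 scale, replicates 1 to 3) at 75%, against 3.00, 0.82 and 1.01 at 50%, whose libraries stood apart. Over the whole phase the median of the run was -0.10, and without that day it was 0.05. VIT_08s0040g00440 was not called without that day (limma, adjusted p = 0.1984). Neither named member was called without replicate 3 or without day -6 of 2014, and without each of these no member was called.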

How the data were processed

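The authors deposited RPKM values (reads scaled to gene length and to the mapped reads of a library) for 29971 gene models across 165 libraries. Per the submitters' processing notes, TopHat2 2.0.6 and Cufflinks 2.0.2 were used; the genome build and the settings are not given in the sources used here. Per the labels, libraries were non-directional, so overlapping genes on opposite strands were not told apart. The low values shared no single step size, so library depth could not be recovered and is unknown. Total RPKM per library lay between 876732 and 1405120.

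Values were tested as log2(RPKM + 1), which understates the change of low gene models, for the 20460 gene models with at least 1 RPKM in at least 3 libraries. All members pass this filter because the rule contains it. limma 3.58.1 in R 4.3.3 fitted a mean for each of 55 groups using a trend with mean level (residual df 110) and Benjamini-Hochberg adjustment over all gene models tested. Calls needed an adjusted p under 0.05, and outside thinning also an absolute log2 difference of at least 1. The code was tested on simulated data for the late change averaged over seasons only, and the other comparisons were not simulated. Members were drawn in Python 3.11.15 with pandas 2.3.3.

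What a replicate number means is not in the labels; the p-values therefore reflect only how far pooled samples of a group vary, which may be technical. The members, lists and tests were chosen with earlier results of these data known. The late change of 2012 against 2013 and the runs of neighbouring IDs were chosen after values were seen. In each comparison the text names at most 2 gene models in each direction: by size of change, or by adjusted p for thinning and for differences between seasons. None of the IDs matched the 29591 genes of the annotation given, so lists of gene families, promoter motifs, and marker genes of seed and green tissue were not used here, and no sequence is shown. The alternatives tried were quantile normalization, a pseudocount of 0.1, no filter, a replicate block, and leaving out each replicate, season, day or library.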

Additional observations from a re-analysis of the deposited data

Results flagged for a closer look

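Members whose late change differed between seasons, by a test of the difference itself, are listed here with the log2 difference of the late changes (limma with Benjamini-Hochberg adjustment). In 2014 minus 2013, 26 members differed. On day 14 the members' median log2(RPKM + 1) was 4.29 in 2013 and 2.95 in 2014, so the late change began at unlike levels. VIT_16s0100g00850, in the run of 27, gave 1.95 (adjusted p = 4.205e-09): it had 0.0814, 0.297 and 0.50 RPKM (lowest, median and highest of 6 libraries) on day 35 and 0.194, 0.473 and 0.810 RPKM on day 14 of 2014, against 0.747, 1.62 and 2.44 RPKM on day 35 and 5.93, 9.99 and 17.8 RPKM on day 14 of 2013. It was below 1 RPKM in every library of those days of 2014. VIT_01s0026g00850 gave 1.39 (adjusted p = 7.008e-08), with medians of 117 RPKM on day 35 and 18.4 RPKM on day 14 of 2014, against 106 and 53.4 RPKM in 2013. VIT_05s0020g05000 and VIT_05s0020g05020 gave -2.05 (adjusted p = 0.01815) and -1.97 (adjusted p = 0.02589), and neither call held without replicate 1 (adjusted p = 0.3135 and 0.3775).

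In 2012 minus 2013, which was added after the season values had been seen, 66 members differed. VIT_16s0039g01280 gave 2.98, VIT_16s0039g01240 gave 3.22 and VIT_02s0033g01390 gave -1.36. The late day was 32 in 2012 and 35 in 2013 and the early day 11 and 14, so season and day cannot be told apart.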

How the results depend on the processing

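Applied to log2(RPKM + 0.1), the rule kept 75 of the 150 members; under the other settings of the rule it kept at least 101. Total calls for the lists of left-out seasons, the second week, the late change and its 2012 minus 2013 difference stayed within 1.5 times under each alternative run. For the late change this did not hold by direction: without the season 2012, 38 members were lower in place of 17, and 15 of the run of 27 in place of 1.

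With a pseudocount of 0.1, over-ripening in 2014 gave 24 calls in place of 12, thinning before veraison 8 in place of 4, and thinning from day 21 to harvest 15 in place of 63. Quantile normalization gave 14 calls for thinning from veraison to day 14 in place of 9. Without the 2 longest runs, season 2014 minus 2013 gave 20 calls and thinning from day 21 to harvest 33.

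Leaving out a replicate number gave 4 to 13 calls for over-ripening, 15 to 27 for the late change of 2014 minus 2013, 0 to 3 for thinning before veraison, 0 to 15 for veraison to day 14, and 11 to 42 for day 21 to harvest. Leaving out single libraries gave 7 to 15 for over-ripening and 32 to 73 for thinning from day 21 to harvest. Thinning calls before veraison came to 9 with day -28 of 2012 left out, 1 with day -9 of 2012, 2 with day -14 or day -7 of 2013 and 0 with day -6 of 2014. From veraison to day 14 it was 5 without day 7 of 2013, 16 without day 0 of 2014, 3 without day 14 of 2014, and 15 less 1 library of day 0 of 2012. From day 21 to harvest it was 31 without day 21 and 17 without day 32 of 2012. The cause was not tested.

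Replicate numbers showed no pairing of libraries over the series as a whole. Over 78 same-numbered pairs at 75% and 50% thinning, the median correlation of deviations was -0.008 (range -0.39 to 0.61). In 20 pairs it was above 0.1, and the highest was replicate 2 on day 21 of 2012. Pairing on single days was not tested. The fit with a replicate block gave the same counts of members called, such as 63 for thinning from day 21 to harvest and 51 for the late change. Among 279 recomputed values of named members, 252 kept their call, 27 lost it and 0 changed sign. Depth is unknown, so how far low values limit these counts was not computed.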
